A study of Mus musculus with 6 samples.

Results

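Integrins are the transmembrane receptors, each made of an α and a β subunit, by which cells hold on to extracellular matrix and to other cells, and laminins are the trimeric α, β and γ chain proteins of basement membranes that several of them bind. The genes described here are the rows of the deposited table whose symbol is that of an integrin α subunit with a number or one of the letters d, l, m, v and x, of a numbered integrin β subunit, or of a laminin α, β or γ chain. The symbols of 34 of the 16729 genes matched, comprising 16 integrin α subunits, 7 integrin β subunits and 11 laminin chains. The rule uses the symbols and no measured value, although earlier results of these data were known when it was set. Every one of the 34 had reads in every library, the lowest count being 5, and all 34 passed the filter on low counts and were tested. Itgad and Itgb6, which the mouse RefSeq table also lists under these names, and Itgae, which the pattern does not take, were not analysed here.

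The libraries come from tumors of mG7080 cells, a mouse gliomasphere line (cells grown as floating spheres) made from a glioblastoma model with engineered losses of tumor suppressor genes, p53 and Nf1 among them. They were grown in the brains of C57BL/6 mice (C57BL/6J in the study's methods), female and 6 to 8 weeks old by the study's methods although its reporting form gives an older range, that were either wild type (WT) or knockout for Esm1 (KO), the gene of the secreted proteoglycan Endocan. The deletion is in the host, and the injected cells carry Esm1 in both groups. RNA-seq of frozen tumor tissue gave 3 libraries per group, WT 1 to WT 3 and KO 1 to KO 3, so each library mixes RNA of a single injected line with RNA of host vessels, leukocytes and brain. In such bulk tissue, fewer cells of a type and less RNA per cell cannot be told apart.

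Gene counts summed to 17632070 to 22241832 per library, and levels are given as CPM (read counts relative to the library total, scaled with edgeR's TMM factors), at which a single read is worth 0.0441 to 0.0568 CPM. Esm1 itself had 25, 21 and 82 reads in WT 1, WT 2 and WT 3, a single read in KO 1 and 4 reads in KO 3, but 24 reads in KO 2. The library labelled KO 2 thus had Esm1 reads near those of WT 1 and WT 2. Since the injected cells carry Esm1 in both groups, the reads alone do not tell the host, and the label was not tested. Counts of calls are therefore given with all 6 libraries and with 4 of them. These 4, WT 1, WT 2, KO 1 and KO 3, are the libraries that the study's own results table uses. Genes called over the 4 libraries are given with their value over all 6, and the values of other genes are over the 4 unless stated. The first principal component over all tested genes, with 87.1% of the variance, set KO 1 (77.2) and KO 3 (99) apart from the 3 WT libraries (-77.0 to -12.7), and the library labelled KO 2 (-27.7) lay among the latter. A legend of the study counts its RNA-seq groups in mice, whereas the labels do not tie a library to a mouse, so p-values measure the spread between these samples.

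Laminins reach the cell surface through few receptors. Integrins α3β1, α6β1, α7β1 and α6β4 bind laminin, other α subunits paired with β1 bind collagen or the fibronectin type of ligand with an RGD motif, and the β2 integrins are confined to leukocytes, where they bind adhesion molecules of the vessel wall and complement. In brain, laminins with the α4 and α5 chains belong to the endothelial basement membrane and the α2 chain to the layer laid down on the astrocyte side, whereas the α3 and β3 chains belong to the laminin of skin and other epithelia.

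Genes of 2 integrin pairs are neighbours in the mouse genome (GRCm38, RefSeq), and in both cases the neighbours differed in their calls over the libraries described below. Itgam (chr7:128062640-128118491) ends 11034 bases before Itgax (chr7:128129526-128150657), both on the plus strand. Itga2 (chr13:114833081-114932100) ends 25978 bases before Itga1 (chr13:114958079-115101964), both transcribed from the minus strand. For the integrin pairs, in which a member called lower lies beside one that was not called, the 250 bases before the transcript start used in the RefSeq promoter table are shown 5′ to 3′ on the gene's own strand. For Itgax that start lies inside the gene interval given above, which holds the last 24 bases shown.
Itgax (chr7:128129300-128129549, plus strand): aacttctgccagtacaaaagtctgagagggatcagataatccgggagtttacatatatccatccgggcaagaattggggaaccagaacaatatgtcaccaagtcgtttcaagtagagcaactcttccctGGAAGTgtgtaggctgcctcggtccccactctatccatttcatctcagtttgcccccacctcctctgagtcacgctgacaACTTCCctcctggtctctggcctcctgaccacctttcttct
Itgam (chr7:128062390-128062639, plus strand): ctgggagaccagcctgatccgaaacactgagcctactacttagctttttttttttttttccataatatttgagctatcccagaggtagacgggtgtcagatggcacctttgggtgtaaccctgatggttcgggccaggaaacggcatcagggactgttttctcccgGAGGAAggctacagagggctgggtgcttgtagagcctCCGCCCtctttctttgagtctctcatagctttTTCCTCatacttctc
Itga2 (chr13:114932101-114932350, minus strand): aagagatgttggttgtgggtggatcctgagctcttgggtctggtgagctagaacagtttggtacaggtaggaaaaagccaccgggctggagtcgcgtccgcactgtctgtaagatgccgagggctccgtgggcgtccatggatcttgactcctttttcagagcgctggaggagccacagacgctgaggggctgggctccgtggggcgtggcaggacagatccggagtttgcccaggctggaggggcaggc
Itga1 (chr13:115101965-115102214, minus strand): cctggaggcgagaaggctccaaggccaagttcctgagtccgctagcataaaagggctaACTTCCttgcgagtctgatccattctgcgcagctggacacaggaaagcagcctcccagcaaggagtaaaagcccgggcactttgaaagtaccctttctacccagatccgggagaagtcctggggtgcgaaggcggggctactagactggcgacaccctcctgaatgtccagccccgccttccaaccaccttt

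Capitals mark GAGGAA and GGAAGT, which hold the GGAA core of the ETS family including the myeloid factor PU.1 and can overlap each other, the GC box GGGCGG and the TATA box letters TATAAA, each searched on both strands. The Itgax window holds GGAAGT on both strands, the Itgam window holds GAGGAA on both strands and a GC box, the Itga1 window holds a single GGAAGT on the opposite strand, and the Itga2 window holds none of the 4. Of all 32851 promoter windows of this length, 23.3% hold GAGGAA, 19.7% GGAAGT, 32.7% GGGCGG and 12.4% TATAAA. Windows were found for 22 of the 34 genes. These are matches of letters and not binding sites.

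To see which receptors and chains the tumors carried most of, levels were compared per length (FPKM, which scales reads by gene length and library size). In the WT libraries Itgb1, the β subunit shared by most matrix-binding integrins, stood far above the rest at 103 ± 28.3 FPKM (SD, n = 3). Next came Itgb8 (25.5 ± 4.66 FPKM), Itgb5 (22.9 ± 2.70), Itgb2 (19.6 ± 3.10), Itga6 (19.4 ± 6.04), Itgax (18.4 ± 5.60), Lamc1 (18.3 ± 4.59) and Itgav (17.9 ± 0.96), each differing from the next by less than the sum of their SDs. Lamb1 (12.6 ± 3.43 FPKM) was the next laminin chain, followed by Lama4 (8.05 ± 2.82), Lamb2 (6.23 ± 0.58) and Lama5 (4.44 ± 1.70). The chains Lama4, Lamb1 and Lamc1, of the endothelial laminin, were thus each the most abundant of their class. Lama1 was the lowest member (0.29 ± 0.12 FPKM), after Lama3 (0.42 ± 0.15).

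In the 4 libraries, 9 of the 34 genes fell in the tumors of KO hosts (adjusted p under 0.05, edgeR's quasi-likelihood test, Benjamini-Hochberg over all genes), beside a background of 13.9% of the 16183 genes tested. They were the leukocyte integrins Itgax, Itgal, Itgb2 and Itgb7, the matrix receptors Itgb1, Itga2 and Itga6, and the laminin chains Lama4 and Lamc1. The genes that rose were 2 of the 34, Lama3 among them, beside a background of 2.87%. With the study's additional limit of a fold change above 4, 6 remained lower (Itgax, Itgal, Itga2, Itgb7, Itgb2 and Itgb1; background 6.23%) and 0 higher (background 0.451%). At an unadjusted p under 0.05 the counts were 13 lower (background 26.2%) and 7 higher (background 19.9%). The median log2 fold change of the 34 genes was -0.27, against -0.03 over all genes tested.

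With all 6 libraries, 0 of the 34 were called in either direction, as were 0% of the 16166 genes tested, also with the fold limit. The smallest adjusted p among the 34 was 0.184 (edgeR). At an unadjusted p under 0.05, 9 genes were lower (background 11.9%) and 6 higher (background 15.2%), and the median log2 fold change was -0.07, against -0.02 over all genes. DESeq2 called 4 lower (Itga2, Lama4, Itga6 and Itga5, background 425 of the 16166 genes) and 2 higher, Lama3 among them (background 757 genes). The exact test of edgeR called Itga2 and Itga6 lower (background 81 genes). With the library labelled KO 2 alone left out of the 6, 14 genes were lower (background 28.3% of all genes) and 7 higher (background 24.5%). The KO and WT libraries did not overlap for 7 genes that were lower in KO (Itga2, Itga5, Itga6, Itgb8, Lama4, Lama5 and Lamc1; background 14.8%) and for 7 that were higher (Itga11, Itgb3, Itgb4, Lama2, Lama3 and Lamc3 among them; background 12.6%).

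**Figure D1:**
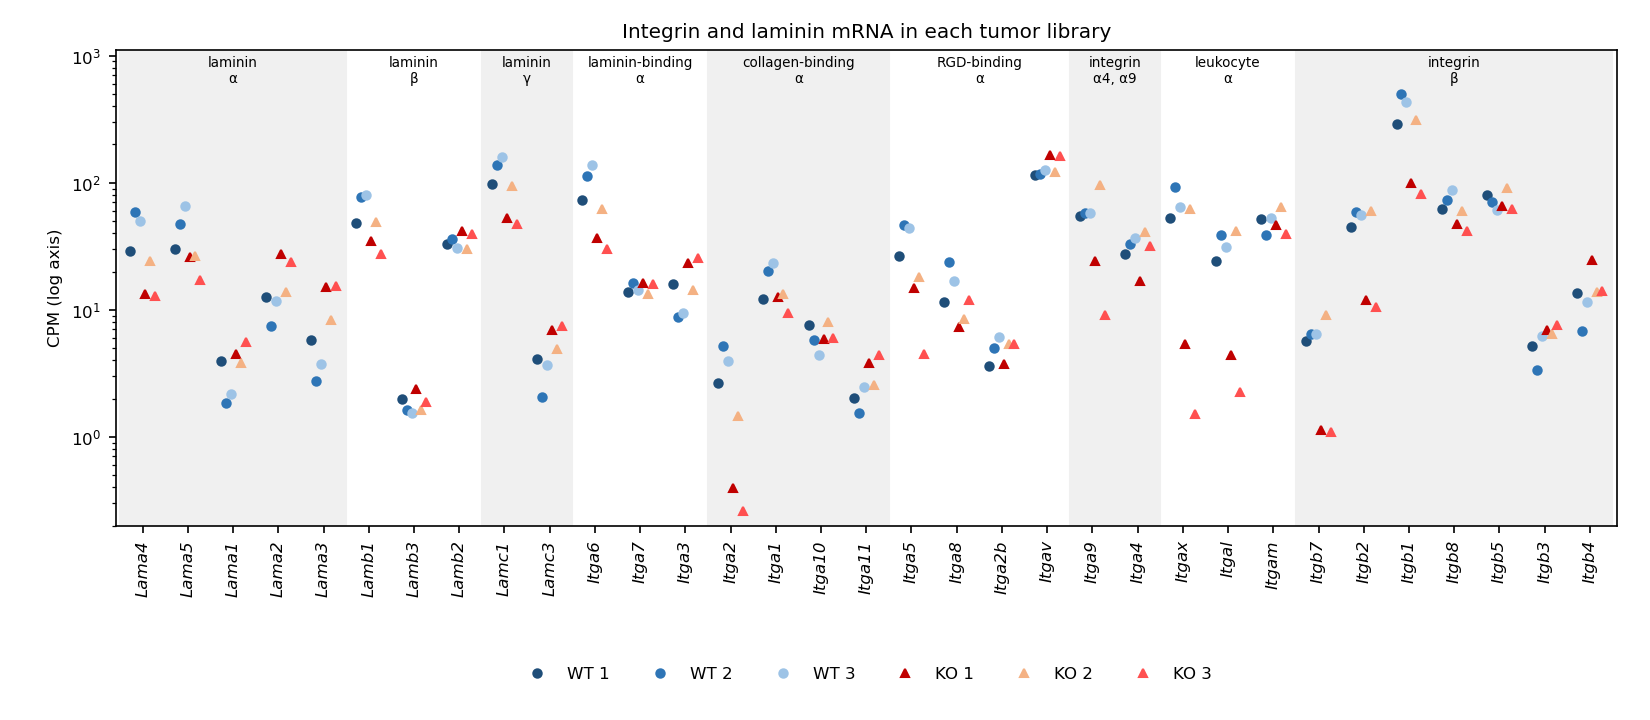
CPM (log axis) of 33 of the genes in each library, grouped by role, with circles for WT hosts and triangles for KO hosts. KO 1 and KO 3 lie below the 3 WT libraries for 14 of these and above them for 10, while the library labelled KO 2 lies among or near the WT libraries for Itgax, Itgal, Itgb2 and Itgb7.

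The leukocyte integrins Itgax, Itgal, Itgb2 and Itgb7 fell over the 4 libraries, Itgax by more than any other of the 34 genes. Itgax, the α subunit of CD11c/CD18 found on dendritic cells and activated macrophages, was at 53.0, 92.2 and 64.1 CPM in WT 1 to WT 3, at 5.39 in KO 1 and 1.51 in KO 3, and at 61.9 in KO 2. KO 1 and KO 3 were thus below all WT libraries, and the library labelled KO 2 was within their range. Over the 4 libraries Itgax fell by 4.39 on the log2 scale (SE 0.67, adjusted p = 0.0343), a fold of 21.0, and over all 6 its log2 fold change was -1.60 (SE 1.22, adjusted p = 0.351). Itgal (chr7:127296139-127335137), the α subunit of LFA-1 on lymphocytes and other leukocytes, was at 24.0, 38.9 and 31.2 CPM in WT, 4.43 in KO 1, 2.23 in KO 3 and 41.6 in KO 2. It fell by 3.23 over the 4 libraries (log2, SE 0.45, adjusted p = 0.0343), and its value over all 6 was -0.96 (adjusted p = 0.499). Their common β subunit Itgb2 (chr10:77530329-77565708) was at 44.4, 58.8 and 55.5 CPM in WT, 12 in KO 1, 10.4 in KO 3 and 60.1 in KO 2, the last being above every WT library. It fell by 2.20 over the 4 libraries (log2, SE 0.23, adjusted p = 0.0343), and its value over all 6 was -0.94 (adjusted p = 0.339).

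Itgam, the CD11b subunit of microglia and other myeloid cells, shares Itgb2 as its partner and lies next to Itgax, but was at 51.4, 38.9 and 52.6 CPM in WT and at 46.7, 64.1 and 39.3 in KO 1 to KO 3. The groups overlap, and its log2 fold change was -0.07 over the 4 libraries (SE 0.22, adjusted p = 0.821) and 0.07 over all 6 (adjusted p = 0.82). Per length, the log2 ratio of Itgax to Itgam went from 0.26, 1.46 and 0.50 in WT to -2.90 in KO 1 and -4.49 in KO 3, with 0.17 in KO 2. Itgb7, a lymphocyte β subunit that pairs with α4, was low throughout, at 5.70, 6.40 and 6.40 CPM in WT, 1.14 in KO 1, 1.09 in KO 3 and 9.12 in KO 2, and fell by 2.43 over the 4 libraries (log2, SE 0.35, adjusted p = 0.0343), with -0.70 over all 6 (adjusted p = 0.549). Itga4, its α partner, was at 27.6, 33.0 and 36.8 CPM in WT and at 16.7, 40.8 and 32.0 in KO (-0.31 over the 4 libraries, adjusted p = 0.498). Itga9, a relative of α4 that pairs with β1, was at 54.7, 57.9 and 57.5 CPM in WT, 24.1 in KO 1, 9.14 in KO 3 and 95.5 in KO 2, and missed the threshold over the 4 libraries (-1.76, SE 0.47, adjusted p = 0.059), with -0.40 over all 6 (adjusted p = 0.705).

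Many, but not all, of the marker genes of leukocytes moved with these values. The summed level of 10 macrophage and monocyte markers was 226 to 362 CPM in WT, 61.9 in KO 1, 45.5 in KO 3 and 334 in KO 2. Most of this sum was Lyz2, at 185, 268 and 279 CPM in WT, 39.8 in KO 1, 22.5 in KO 3 and 271 in KO 2. Over the 4 libraries 5 of the 10 were called lower, while the log2 fold change of 3 was above 0. Of 8 T and NK cell markers 7 were called lower, with sums of 35.7 to 38.9 CPM in WT, 27.8 in KO 1, 7.79 in KO 3 and 53.0 in KO 2. Most of the KO 1 sum was Cd4, at 22.8 CPM against 7.45 to 10.3 in WT and 3.63 in KO 3. Cd3e, which defines T cells, was at 0.34 and 0.21 CPM in KO 1 and KO 3. The sum of 10 microglia markers stayed between 472 and 647 CPM in all 6 libraries, with 1 of 10 called lower. The part of these cells in the integrin values was not tested.

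**Figure D2:**
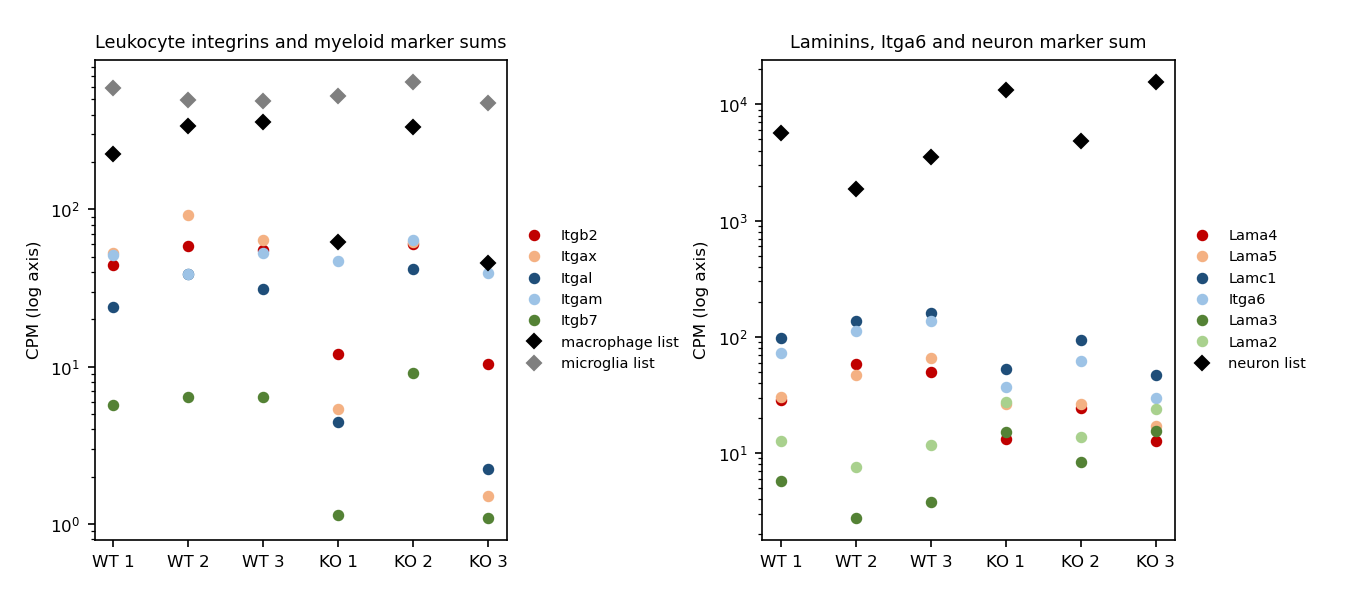
CPM (log axis) in each library of leukocyte integrins with the summed macrophage and microglia markers (left), and of laminin chains and Itga6 with the summed neuron markers (right). Itgax, Itgal, Itgb2 and Itgb7 are low in KO 1 and KO 3, as is the macrophage sum, while Itgam and the microglia sum are not.

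Among the matrix receptors, Itgb1 (chr8:128685654-128733579) was the most abundant per length in the WT libraries and in the library labelled KO 2. In KO 1 it was level with Itgav (both 21.6 FPKM), and in KO 3 it was below Itgav (16.7 against 19.8 FPKM). Itgb1 was at 290.3, 497 and 431 CPM in WT, 98.9 in KO 1, 80.8 in KO 3 and 313 in KO 2, between WT 1 and WT 3. It fell by 2.12 over the 4 libraries (log2, SE 0.34, adjusted p = 0.0343), a fold of 4.36, and its value over all 6 was -1.31 (SE 0.57, adjusted p = 0.188). Itga6 (chr2:71786886-71858427), a laminin-binding α subunit also used to mark glioma stem cells, was at 73.0, 113 and 137 CPM in WT and at 36.7, 61.6 and 29.9 in KO 1 to KO 3. All KO libraries, KO 2 included, were below all WT libraries. It was the most abundant laminin-binding α subunit per length in every library but KO 3, where Itga3 was at 4.52 and Itga6 at 4.39 FPKM. Itga6 fell by 1.47 over the 4 libraries (log2, SE 0.26, adjusted p = 0.0356), and its value over all 6 was -1.33 (SE 0.35, adjusted p = 0.184).

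The other laminin-binding subunits were not called. Itga3 was at 15.9, 8.78 and 9.43 CPM in WT and at 23.2, 14.3 and 25.3 in KO 1 to KO 3 (0.97 over the 4 libraries, SE 0.34, adjusted p = 0.0888). Itga7, known from muscle, was at 13.7 to 16.2 CPM in WT and 13.3 to 16.1 in KO (0.11, adjusted p = 0.709). Itgb4, which pairs with α6 alone and anchors it to keratin filaments in epithelia, was at 13.6, 6.82 and 11.4 CPM in WT and at 24.6, 13.8 and 14.0 in KO, so that the groups did not overlap although the test did not call it (0.92, SE 0.46, adjusted p = 0.174). The log2 ratio of Itga6 to Itgb4 per length was 2.46, 4.08 and 3.62 in WT and 0.61, 2.18 and 1.13 in KO 1 to KO 3.

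Itga2, a collagen and laminin receptor subunit, was per length the lowest member in KO tumors. It was at 2.64, 5.18 and 3.92 CPM in WT and 0.397, 1.45 and 0.26 in KO 1 to KO 3, the value in KO 3 coming from 5 reads. It fell by 3.54 over the 4 libraries (log2, SE 0.57, adjusted p = 0.0343), a fold of 11.7, and its value over all 6, the lowest of the 34 genes there, was -2.44 (SE 0.69, adjusted p = 0.184). Its neighbour Itga1, which binds collagen IV of basement membranes, was at 12.1, 20.1 and 23.2 CPM in WT and at 12.5, 13.4 and 9.45 in KO, with overlapping groups (-0.54, adjusted p = 0.249). The fibrillar collagen receptor subunit Itga11 was at 2.02, 1.53 and 2.48 CPM in WT and 3.8, 2.56 and 4.41 in KO (1.20, SE 0.37, adjusted p = 0.071), and Itga10 was at 4.42 to 7.53 CPM in WT and 5.85 to 8.02 in KO (-0.18, adjusted p = 0.672).

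None of the 4 subunits of the RGD-binding class was called. Itga5, the main fibronectin receptor subunit, came nearest with 26.7, 46.7 and 43.9 CPM in WT and 14.8, 18 and 4.46 in KO 1 to KO 3, groups that do not overlap (-1.92 over the 4 libraries, SE 0.62, adjusted p = 0.0766). Itgav, the vitronectin receptor subunit, was at 115, 117 and 125 CPM in WT and at 167, 122 and 161 in KO (0.50, SE 0.18, adjusted p = 0.096). Per length, Itgav was the most abundant α subunit in WT 1 and in KO 1 to KO 3. Of its β partners, Itgb8, which acts in TGFβ activation, was at 62.5, 73.3 and 88.0 CPM in WT and 47.4, 59.6 and 41.9 in KO (-0.60, adjusted p = 0.0678), Itgb5 at 61.3 to 79.6 CPM in WT and 62.2 to 90.7 in KO (-0.24, adjusted p = 0.311), and Itgb3 at 3.38 to 6.20 CPM in WT and 6.43 to 7.53 in KO (0.75, adjusted p = 0.155). Itga8 was at 11.4 to 23.7 CPM in WT and 7.32 to 11.9 in KO (-0.86, adjusted p = 0.183), and the platelet subunit Itga2b at 3.62 to 6.05 CPM in WT and 3.75 to 5.40 in KO (0.10, adjusted p = 0.848).

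**Figure D3:**
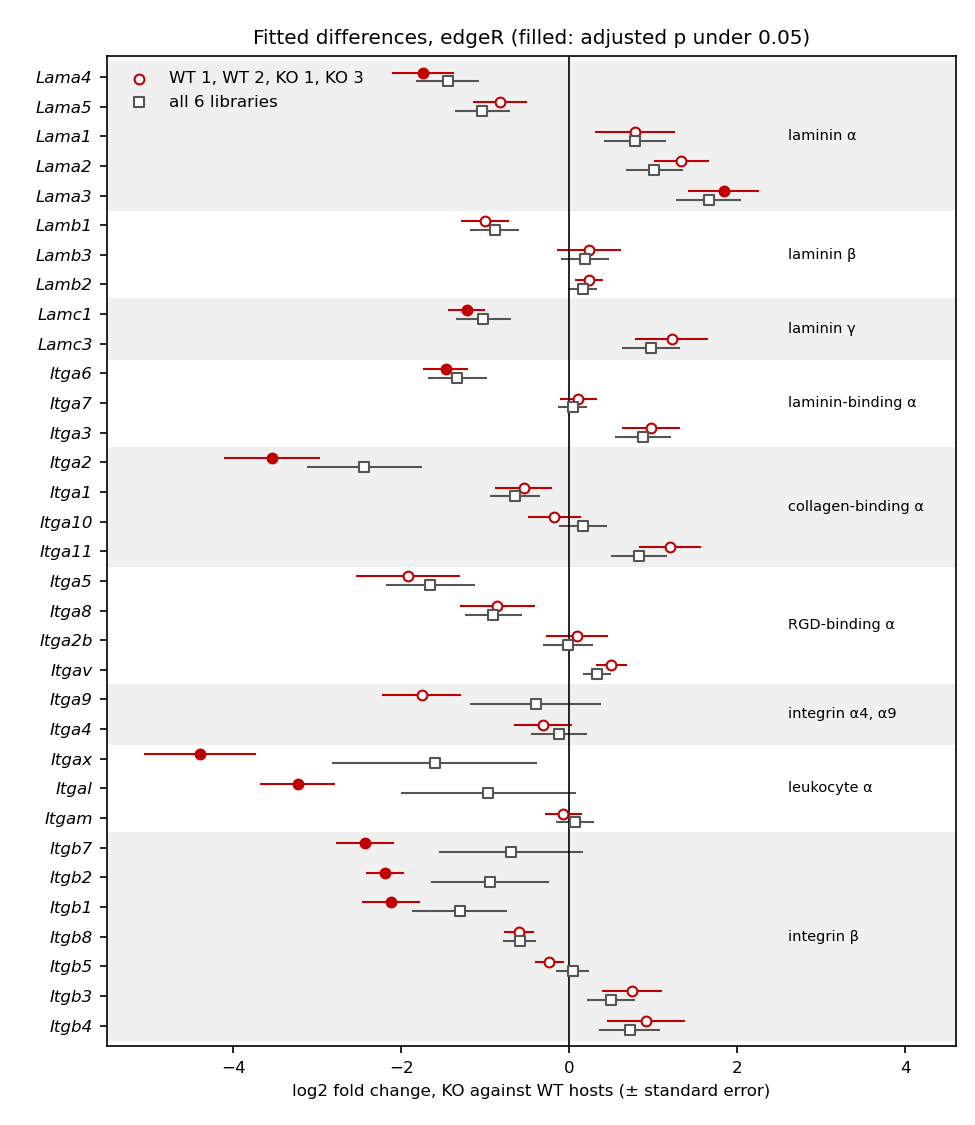
Log2 fold change of 33 of the genes, KO against WT hosts, with bars of ± 1 standard error from edgeR, for the 4 libraries (circles) and all 6 (squares), filled where the adjusted p is under 0.05. The 10 filled symbols all belong to the 4 libraries, with 9 below 0 and Lama3 above 0.

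For the 23 genes not called over the 4 libraries, the log2 fold change over all 6 differed from that over the 4 by at most 0.37, except for Itga9 given above, and its sign differed for Itga10, Itga2b, Itgam and Itgb5.

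The laminin chains moved in opposite directions. Lama4 (chr10:38965515-39110188), the α chain that endothelial cells lay down, was at 28.8, 58.7 and 50 CPM in WT and at 13.2, 24.4 and 12.7 in KO 1 to KO 3, with no overlap. It fell by 1.74 over the 4 libraries (log2, SE 0.37, adjusted p = 0.0426) and had -1.45 over all 6 (SE 0.38, adjusted p = 0.184). Lamc1, the γ chain of most laminins, was at 97.9, 137 and 160.2 CPM in WT and at 52.8, 94.1 and 47.3 in KO, again with no overlap, and fell by 1.22 over the 4 libraries (log2, SE 0.22, adjusted p = 0.0358), with -1.02 over all 6 (adjusted p = 0.184). Lamb1, the β chain that joins these, was at 48.1, 77.0 and 80.6 CPM in WT and 34.9, 49.0 and 27.3 in KO, where KO 2 was just above WT 1 (-1.0, SE 0.28, adjusted p = 0.0635). Lama5, the other endothelial α chain, was at 30.2, 46.9 and 65.9 CPM in WT and 26.2, 26.3 and 17.2 in KO (-0.82, SE 0.32, adjusted p = 0.109).

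Lama3, the α chain of epithelial laminin, went the other way, from a low level. It was at 5.79, 2.75 and 3.77 CPM in WT and at 15.2, 8.33 and 15.5 in KO, and rose by 1.84 over the 4 libraries (log2, SE 0.43, adjusted p = 0.0481), with 1.66 over all 6 (adjusted p = 0.184). Every KO library was above every WT library. Lamb3, the β chain of the same epithelial laminin, was at 1.54 to 1.98 CPM in WT and 1.63 to 2.38 in KO (0.23, SE 0.38, adjusted p = 0.647), a level of 31 to 42 reads per library.

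Lama2, the α chain on the astrocyte side, was at 12.7, 7.51 and 11.8 CPM in WT and at 27.3, 13.8 and 23.7 in KO 1 to KO 3, without overlap, and just missed the threshold over the 4 libraries (1.33, SE 0.33, adjusted p = 0.0518). Lamc3, a γ chain found in cortex and retina, was at 4.10, 2.06 and 3.67 CPM in WT and 6.93, 4.89 and 7.48 in KO (1.22, SE 0.44, adjusted p = 0.0913). Lama1, the α chain of embryonic and pial basement membranes, was at 1.85 to 3.95 CPM in WT and 3.79 to 5.56 in KO (0.78, adjusted p = 0.24), and Lamb2 at 30.4 to 36.1 CPM in WT and 30.1 to 41.8 in KO (0.23, adjusted p = 0.313).

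Neuron, glia and vessel markers were measured beside these chains. The sum of 12 neuron markers was 5673, 1863 and 3497 CPM in WT 1 to WT 3 and 13164, 4820 and 15609 CPM in KO 1 to KO 3, and that of 9 myelinating oligodendrocyte markers was 3295, 1350 and 1887 CPM in WT and 7431, 3151 and 3835 CPM in KO. None of the 12 neuron markers was called, although the log2 fold change of each was above 0. KO 1 and KO 3, which held most Lama3 and Lama2, also held most neuron RNA, and WT 2 held least of these. Of 10 proliferation markers 9 were called lower over the 4 libraries, with sums of 1043 to 1919 CPM in WT, 99.7 in KO 1, 15.4 in KO 3 and 1168 in KO 2. The 12 endothelial markers summed to 249 to 323 CPM in WT and 245 to 331 in KO, with 0 called. The 10 mural markers summed to 332 to 444 CPM in WT, 228 in KO 1, 162 in KO 3 and 454 in KO 2, with 1 called lower (Cspg4, which glial progenitors also express) and 2 called higher (Pdgfrb and Myh11). Cspg4 alone was at 192, 247 and 213 CPM in WT, 45.9 in KO 1, 28.5 in KO 3 and 299.7 in KO 2. The 9 astrocyte markers summed to 3808, 3131 and 3090 CPM in WT and 5862, 4074 and 5351 CPM in KO 1 to KO 3, without overlap, while 3 were called lower (Gfap, Sox9 and Agt) and 1 higher (Gja1). The part of tumor, neuron, oligodendrocyte, astrocyte, endothelial or mural cell content in the laminin values was not tested.

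Which laminins a tissue can build depends on the proportions of its chains, so shares within each class were taken from the per-length levels, which also frees them from the scaling between libraries. Lama4 made up 49.1%, 64.5% and 52.1% of the laminin α chain level in WT 1 to WT 3 and 23.7%, 45.0% and 25.8% in KO 1 to KO 3, or 55.2 ± 8.15% against 31.5 ± 11.7% (SD, n = 3 each, exact permutation test, two-sided p = 0.1, which is the smallest that 3 against 3 allows). Lama2 made up 13.5%, 5.13% and 7.67% in WT and 30.4%, 15.8% and 30.0% in KO, or 8.77 ± 4.29% against 25.4 ± 8.32% (exact p = 0.1). For both chains no KO library overlapped the WT libraries. Adjusted over the 4 shares tested, the p of both was 0.2 (exact permutation).

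Among the β subunits Itgb1 held 51.4%, 62.8% and 58.8% in WT and 34.2%, 49.9% and 32.3% in KO. Among the α subunits the laminin-binding ones together held 23.0 ± 2.23% in WT and 21.2 ± 4.01% in KO (exact p = 0.6), within which Itga6 went from 14.0%, 16.8% and 20.7% to 9.48%, 10.4% and 8.56%. The leukocyte α subunits held 31.9 ± 2.26% in WT and 18.5%, 36.8% and 15.5% in KO 1 to KO 3 (exact p = 0.4).

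**Figure D4:**
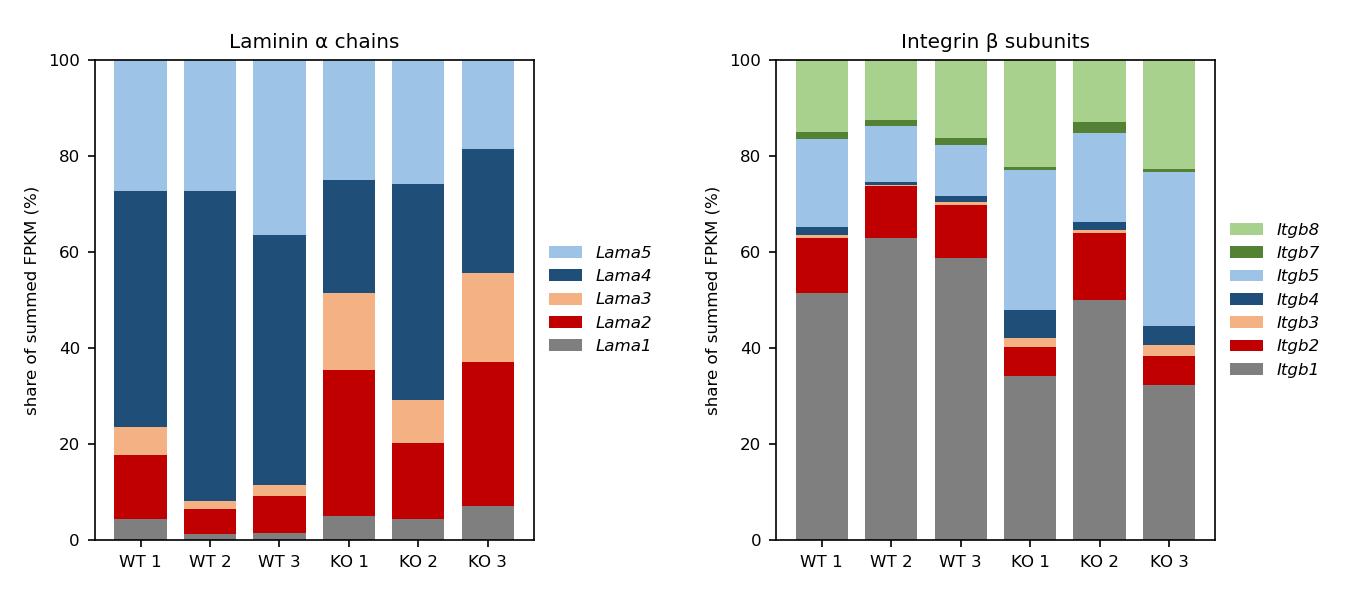
Share (%) of each laminin α chain in their summed FPKM (left) and of each integrin β subunit (right), 1 bar per library. Lama4 is the largest share in the 3 WT libraries and in KO 2, and Lama2 in KO 1 and KO 3, while Itgb1 is smaller in every KO library than in any WT library.

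Receptor subunits and chains that are built into the same proteins were then set against each other as log2 ratios of per-length levels, for 28 pairs. A ratio that holds steady says that both genes moved alike. The narrowest was Lamb1 to Lamc1, which lay between -0.62 and -0.20 in all 6 libraries. The receptor subunit Itga6 kept its ratio to Lama4 between 0.98 and 1.51, with overlapping groups. Itga6 to Lamc1 lay between -0.29 and 0.15 in all 6 libraries, but without overlap, from -0.05, 0.09 and 0.15 in WT to -0.15, -0.24 and -0.29 in KO. Other pairs came apart: Lama2 to Lama4 went from -1.86, -3.65 and -2.76 in WT to 0.36, -1.51 and 0.22 in KO, and Itgav to Itgb8 from -0.30, -0.52 and -0.68 to 0.63, -0.16 and 0.75. Of the 28 ratios 10 did not overlap between the groups, and the smallest adjusted p over the 28 was 0.28 (exact permutation test, two-sided). Many of the 28 share a gene, so the 10 are not independent differences. No share over pairs of other genes was taken. Of all single genes tested, 14.8% were lower and 12.6% higher without overlap.

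The library labelled KO 2 took different positions for different members. KO 1 and KO 3 were both below the 3 WT libraries for 14 of the 34 genes (background 40.4% of genes tested) and both above them for 11 (background 37.2%). Among the 14, the library labelled KO 2 had a level inside that of the WT libraries for Itgax, Itgb1 and Lamb1, above it for Itga9, Itgal, Itgb2 and Itgb7, and below it for Itga2, Itga5, Itga6, Itgb8, Lama4, Lama5 and Lamc1. For these last 7 it was still higher than KO 1 and KO 3. Among the 11 it lay within the WT range for Itga3, Itgav and Lama1, below it for Lamb2, and above it for the 7 others, with values under those of KO 1 and KO 3 for each of the 7. Among all genes tested for which KO 1 and KO 3 were below WT, the library labelled KO 2 was within the WT range for 51.2%, below it for 36.7% and above it for 12.1%. Where KO 1 and KO 3 were above WT it was within for 58.8%, below for 7.36% and above for 33.9%.

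Each of the 4 libraries was also left out in turn. A single library then remained in its group and was assumed to vary like those of the other group. Effect sizes alone are therefore given for these fits. The log2 fold change ran from -5.56 to -3.72 for Itgax, -3.79 to -2.802 for Itgal and -3.94 to -3.004 for Itga2. It ran from -2.37 to -2.003 for Itgb2, -2.49 to -2.37 for Itgb7 and -2.44 to -1.71 for Itgb1. For Itga6 it ran from -1.74 to -1.15, for Lama4 from -2.15 to -1.16 and for Lamc1 from -1.42 to -0.98. For Lama3 it ran from 1.39 to 2.501. Among genes not called over the 4 libraries, Itga5 ran from -3.01 to -1.28 and Itga9 from -2.61 to -1.203.

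Other genes of the same pathway were taken from 4 lists of partners, of whose 90 genes 83 were in the table and tested. Over the 4 libraries 15 of the 83 fell and 1 rose, beside the same backgrounds of 13.9% and 2.87%, and over all 6 libraries 0 were called, where an unadjusted p under 0.05 was reached by 10 lower and 5 higher ones. Their median log2 fold change over the 4 libraries was -0.23. Genes named here besides the lowest and highest of each list were chosen after their values were seen.

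Among 18 other basement membrane genes 5 fell, namely Col18a1 (-2.05, adjusted p = 0.0343), the perlecan gene Hspg2 (-1.49), Col4a5 (-1.45), Sparc (-1.35) and Nid1 (-1.24), the last encoding the nidogen that links laminin to collagen IV. Over all 6 libraries their log2 fold changes were, in this order, -0.43, -1.03, -1.24, -0.93 and -0.95 (edgeR, adjusted p between 0.184 and 0.744). Col18a1, the source of endostatin, was at 37.3, 30.2 and 62.3 CPM in WT, 9.65 in KO 1, 6.65 in KO 3 and 80.0 in KO 2. Npnt, which encodes the α8β1 ligand nephronectin, was the highest of the list (1.08, adjusted p = 0.063). The main collagen IV chains Col4a1 (-0.14, adjusted p = 0.642) and Col4a2 (0.47, adjusted p = 0.1) were not called. Of 13 other laminin receptors and their modifiers 3 fell, the syndecan Sdc1 (-3.75, adjusted p = 0.0343), the hyaluronan receptor Cd44 (-3.05) and the tetraspanin Cd151 (-1.07), which binds laminin-binding integrins. Over all 6 libraries these were at -1.67, -1.78 and -0.78 (adjusted p between 0.188 and 0.286). The dystroglycan gene Dag1 was not called (-0.33, adjusted p = 0.224), and Sgcd was the highest (0.88, adjusted p = 0.221).

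Inside the cell, 4 of 29 genes of the adhesome, the proteins that tie integrins to actin, fell, namely Lims2 (-2.0, adjusted p = 0.0448), Kank1 (-1.50), Lims1 (-1.02) and talin, Tln1 (-0.98). With all 6 libraries they were at -0.26, -0.40, -0.74 and -0.55 (adjusted p between 0.186 and 0.844). The kinase gene Ptk2b was the highest (1.63, adjusted p = 0.0729). Among 23 other integrin ligands Emilin1, a ligand of α4β1 and α9β1, fell by 2.86 (log2, adjusted p = 0.0343), and so did Icam1 and Vcam1 (both by 2.30), the vessel wall ligands of the β2 and α4 integrins. With all 6 libraries Emilin1 was at -1.78, Icam1 at -0.91 and Vcam1 at -1.17 (adjusted p between 0.184 and 0.399). Vcam1 was at 114, 226 and 192 CPM in WT, 37.1 in KO 1, 31.8 in KO 3 and 167 in KO 2. For Vcam1, KO 1 and KO 3 were thus below the 3 WT libraries, as for 40.4% of all genes tested. Vtn, encoding the αv ligand vitronectin, was the gene that rose, from 43.4, 42.7 and 52.9 CPM in WT to 75.4, 68.9 and 78.7 in KO 1 to KO 3 (0.84, SE 0.16, adjusted p = 0.0368, and 0.68 over all 6, adjusted p = 0.184). Icam4 was the highest of this list (1.16, adjusted p = 0.0817).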

How the data were processed

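RNA-seq of tumor tissue was analysed for 6 libraries, 3 from WT and 3 from KO hosts, grouped by the sample labels. The labels name a NEBNext Ultra kit, mm10, CASAVA 1.8.2 and edgeR. The paper's methods name another kit (Ovation Ultralow), HTSeq counts of uniquely mapped reads and hg38, although the deposited table holds mouse symbols, and the aligned genome was therefore not settled. Counts in the deposited table are whole reads per gene and were not normalized. The deposited FPKM were made by the authors from the counts, gene length and library size, and were used here for shares, ratios and the order of levels. The same table holds signal values that the authors made by bringing the counts to a common library size, and log2 fold changes, p-values and false discovery rates of the authors' own comparison with edgeR, and none of these were used.

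The fit of the counts used edgeR 4.0.16 under R 4.3.3 (filterByExpr at a minimum count of 10 and a total of 15, TMM, quasi-likelihood F test, Benjamini-Hochberg over all genes tested), and was made on all 6 libraries and on WT 1, WT 2, KO 1 and KO 3, the libraries of the study's results table. Log2 fold changes are KO minus WT. Shares and ratios were compared by exact permutation in scipy 1.17.1. Alternatives were other scalings and filters, DESeq2 1.42.0, edgeR's exact test, limma-voom (limma 3.58.1), a replicate block and each library left out in turn. Total counts per library set the counting error only, whereas the standard errors and p-values of the edgeR fits also hold the spread between libraries. Standard errors were derived from the log2 fold change and the F statistic of the test. The scripts were tested on simulated data. The members, partner lists and marker lists were chosen with earlier results of these data known. Every member could be named, and of each partner list the lowest and the highest gene. Gene positions and promoters come from RefSeq (GRCm38.p6), matched by symbol. Proteins, and promoters of the remaining members, were not used here, and 1 member is not reported here by name.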

Additional observations from a re-analysis of the deposited data

How the results depend on the processing

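Results over all 6 libraries depended on the test and on the library labelled KO 2. With DESeq2, 4 members were lower and 2 higher and 2 partner genes lower and 1 higher, beside 425 and 757 of 16166 genes. With edgeR's exact test 2 members and 1 partner gene were lower, beside 81 genes, against 0 with the quasi-likelihood test. With each library left out in turn the counts ran from 0 to 14 lower and 0 to 7 higher for the members. For the partner genes they ran from 0 to 28 and 0 to 13. The highest were those without KO 2, where 4608 and 3986 of all 16279 genes were called. Over the 4 libraries, the counts with each left out ran from 2 to 15 lower and 0 to 10 higher for the members and from 2 to 30 and 0 to 12 for the partner genes. Over the 4 libraries, the 2 members called higher became 6 with DESeq2 and 6 with the exact test, beside 2679 and 2622 of 16183 genes. With a fold change above 4 they became 0, beside 73 genes. The partner gene called higher became 5, 5 and 0 in the same order, or 0 with library size alone, beside 395 genes. The 15 partner genes called lower became 23 with the exact test, beside 3263 genes, and 6 with a fold change above 4, beside 1008 genes. Of the single calls, Lama4 missed the threshold with limma-voom (adjusted p = 0.0541), whereas Lama2 passed it with DESeq2's size factors in edgeR (adjusted p = 0.0497).

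Library size alone, without TMM, moved the median log2 fold change of all genes to -0.27 over the 4 libraries and -0.17 over all 6. Members near 0 then changed sign, namely Itga7 (-0.14), Itga2b (-0.16), Lamb2 (-0.013) and Lamb3 (-0.0073) over the 4 libraries and Itga7 (-0.12), Itgam (-0.057), Itgb5 (-0.089) and Lamb2 (-0.011) over all 6. Itga2b over all 6 was at 0.026 with RLE factors, 0.028 with DESeq2, 0.0079 without a filter and 0.011 with limma-voom. With each library left out, the log2 fold change crossed 0 over the 4 libraries for Itga10 (-0.37 to 0.047), Itga2b (-0.17 to 0.35), Itga4 (-0.83 to 0.10) and Itgam (-0.27 to 0.17), and over all 6 for Itga2b (-0.19 to 0.20), Itga4 (-0.39 to 0.16), Itga7 (-0.0045 to 0.15), Itga9 (-1.75 to 0.078), Itgam (-0.13 to 0.22) and Itgb5 (-0.13 to 0.15), none of which was called in the fits reported. The share of integrin alpha subunits that are laminin-binding (difference -1.83 percentage points) was 1.73 higher in KO over the 4 libraries and ran from -3.30 to 0.452 with each library left out, the highest being that without KO 2. The cause of these changes was not tested.

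A fit with the replicate number as a block called 0 members and 0 partner genes in either direction over all 6 libraries. Deviations of libraries with the same number correlated at 0.629, 0.668 and -0.272 for numbers 1, 2 and 3, and KO 3 correlated best with WT 1 (0.621), so the numbers were not taken to pair the libraries. The 4 libraries share a single number and allow no block.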
